A study of Mus musculus with 12 samples.

Results

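The genes described here are 38 of the 51826 genes in the table of MC38 cells, a line derived from a mouse colorectal carcinoma. They were chosen by symbol: 22 genes of glycolysis (3 glucose and lactate transporters, 16 enzymes and 3 regulators of glycolytic flux) and 16 genes of the hypoxia response (the transcription factor gene Hif1a, 2 genes of its prolyl hydroxylases, and 13 other targets of the factor). The rule uses the symbols and no measured value, but the list was drawn up with earlier results of these data known. Poly-A RNA was sequenced from 4 groups of 3 libraries: wild-type cells left untreated, wild-type cells with added interferon (IFN), untreated cells in which Smarcd1 had been targeted with a guide RNA, and the same knockout cells with IFN. The SMARCD1 protein belongs to SWI/SNF chromatin remodelling complexes, which shift nucleosomes. The sources used here do not give the kind of interferon, its dose and duration, the number of knockout clones, or whether replicates were separate cultures, so p-values measure only the spread between these samples.

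Glycolysis turns glucose into pyruvate in the cytosol, and tumour cells commonly run it fast and pass the pyruvate on to lactate even when oxygen is plentiful. HIF-1 joins an unstable alpha subunit, encoded by Hif1a, with a constant partner. When oxygen is present, prolyl hydroxylases mark the alpha subunit for destruction through the von Hippel-Lindau protein, so HIF activity is set mainly at the protein level rather than by the amount of Hif1a RNA. When oxygen is short, the factor binds short sites, ACGTG among them, near genes of glucose uptake, glycolysis, mitophagy, collagen hydroxylation and vessel growth. It also raises Egln1 and Egln3, which encode hydroxylases that act on HIF itself. Many glycolytic genes are HIF targets too, and here they were kept apart from the other targets.

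The other HIF targets were highest in untreated wild-type cells, and the sum of their 13 levels showed this in every library. Levels are given as TPM, the authors' transcript abundance corrected for gene length and library size. The sum was 1096 to 1130 TPM in untreated wild-type cells, 595 to 659 TPM in wild-type cells with IFN, 658 to 731 TPM in untreated knockout cells and 553 to 570 TPM in knockout cells with IFN. The 16 glycolytic enzymes summed to 13014 to 16412, 12227 to 13252, 14865 to 17529 and 12038 to 12557 TPM in the same order. The hypoxia sum was thus lower with either IFN or the knockout. The lowest enzyme sums were in the 2 groups with IFN, where they lay below every untreated knockout library. Those of wild-type cells with IFN overlapped the untreated wild-type range only through replicate 2 of the untreated cells (13014 TPM), which stood apart as described below. Replicates 1 and 3 had 16412 and 16025 TPM. These are bulk samples, in which fewer cells of a type and less RNA per cell cannot be told apart.

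Differences were tested on counts with edgeR's quasi-likelihood test, adjusted by the Benjamini-Hochberg method over all 16676 genes tested, and rises and falls named below had an adjusted p under 0.05. Of the members, 37 were tested; Slc2a3, a glucose transporter gene, had 17 counts over all libraries and was listed at 0 in 6 of them. IFN in wild-type cells lowered 18 of the 37 and raised 0, against 4.72% of all genes lower and 4.66% higher (9.38% in either direction). IFN in knockout cells lowered 10 and raised 0, against 7.28% and 5.47% of all genes. The knockout without IFN lowered 15 and raised 0, against 10.6% and 6.43%. Under IFN the knockout lowered 3 and raised 3, against 10.6% and 5.11%, a total of 16.2% of the members beside 15.7% of all genes. The IFN response and the untreated knockout effect share the untreated wild-type libraries as their control, so the 18 and the 15 are not separate observations of these genes. At an unadjusted p under 0.05, edgeR had 1, 3 and 1 members higher where it called 0, and DESeq2 called 1, 1 and 0. Libraries of the groups compared did not overlap in normalised CPM for 25 members with IFN in wild-type cells (27.9% of all genes), 24 with IFN in knockout cells (39.4%), 15 in untreated knockout cells (33.5%) and 15 in the knockout under IFN (41.1%).

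The hypoxia genes and the glycolytic genes are given apart. Of the 16 hypoxia genes, 10 fell with IFN in wild-type cells (median log2 difference -0.69), 3 with IFN in knockout cells (-0.15), and 12 in untreated knockout cells (-0.56). Of the 21 tested glycolysis genes, 8 fell with IFN in wild-type cells (median -0.34), 7 with IFN in knockout cells (-0.28), and 3 in untreated knockout cells (-0.04). Over all genes, 4.72%, 7.28% and 10.6% were lower in these comparisons, so the 3 (14.3% of the set) lie near the last share. Without replicate 2 of the untreated wild-type cells, the hypoxia genes that fell numbered 13, 3 and 14 (medians -0.73, -0.15 and -0.61). The glycolysis genes that fell then numbered 11, 9 and 2 (medians -0.41, -0.28 and -0.13), with 1 higher in each of the IFN comparisons. Of all genes, 5.27%, 9.95% and 9.63% were then lower. With all libraries, the knockout under IFN raised 2 and lowered 2 hypoxia genes (25%), and raised 1 and lowered 1 glycolysis gene (9.52%). Of all genes, 15.7% were called there. Over all genes the medians of these comparisons, with all libraries, lay within 0.0058 of 0. The difference between both gene sets was not tested.

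**Figure D1:**
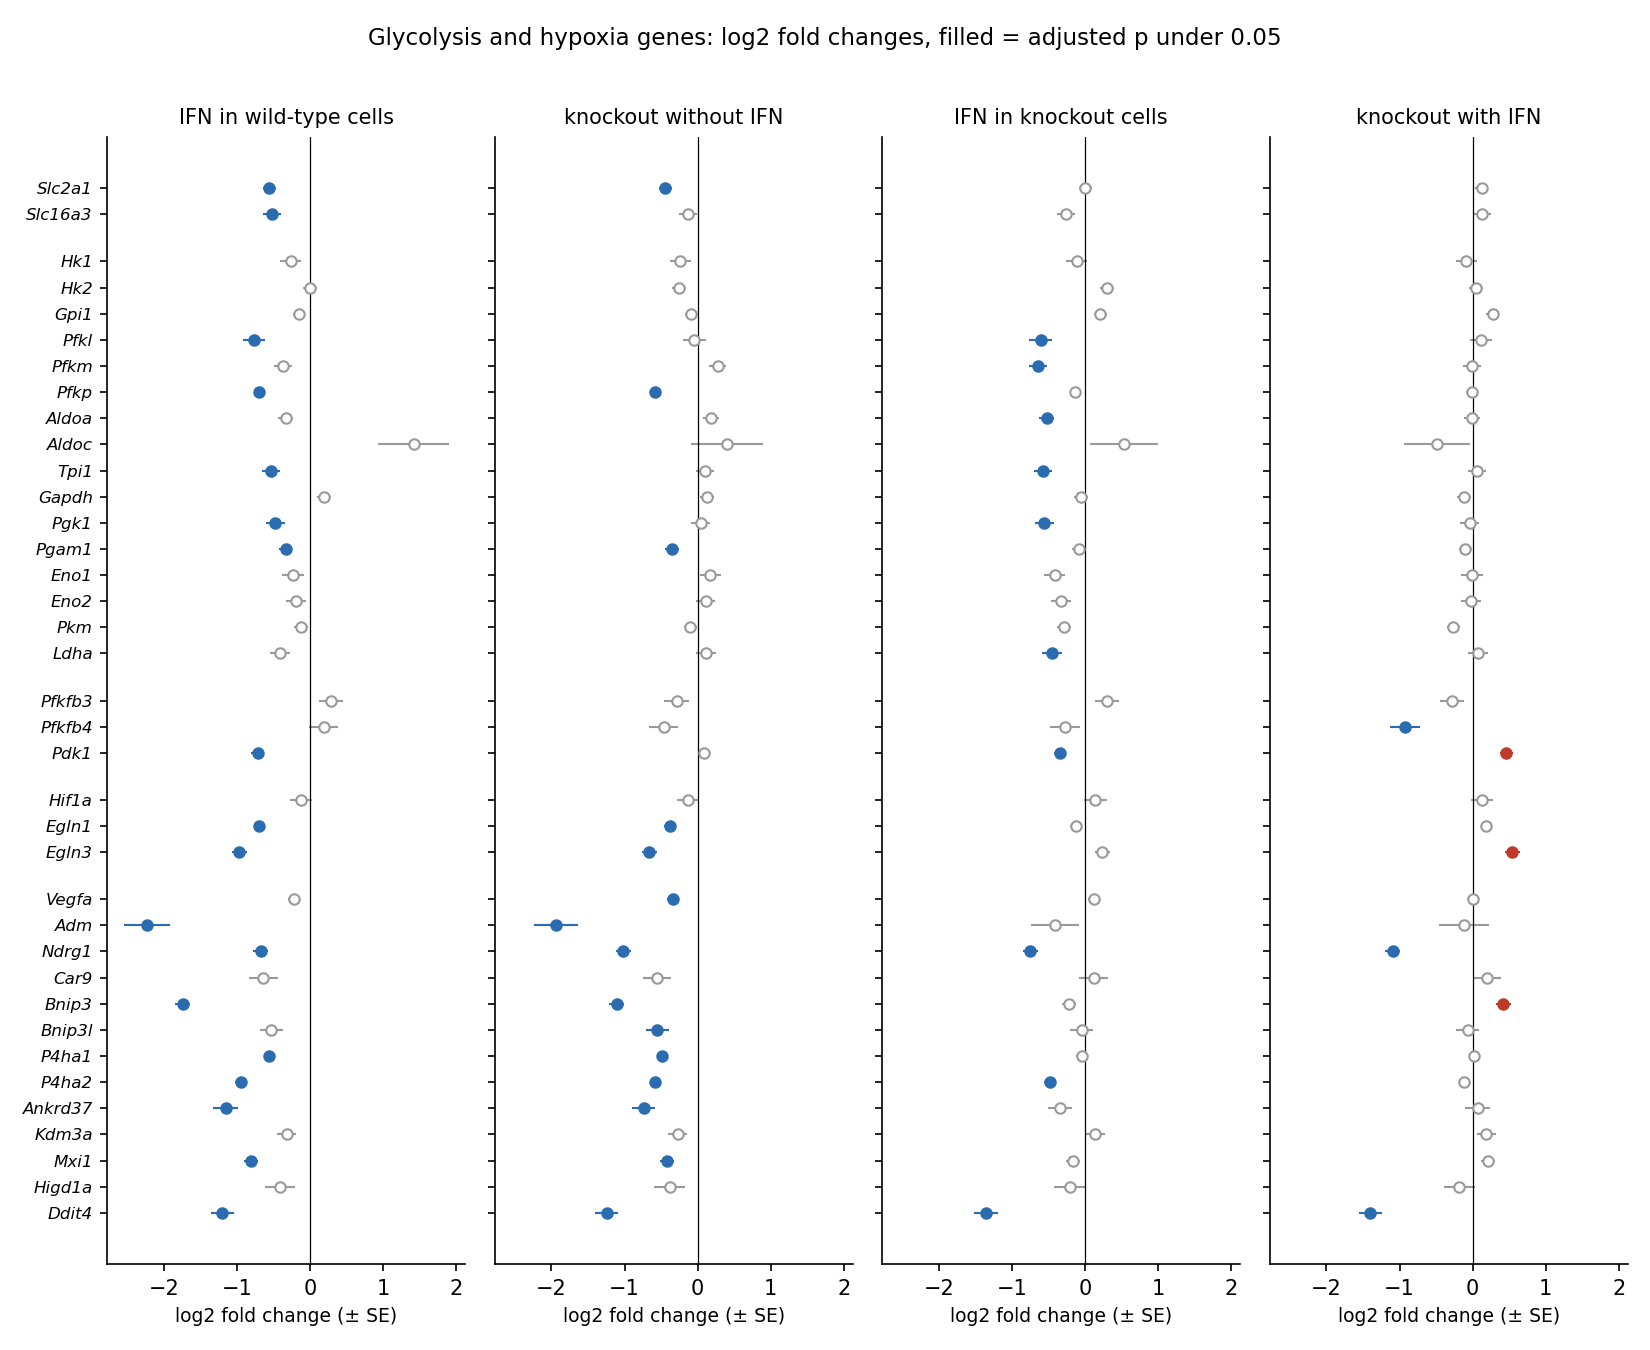
Log2 fold changes of the 37 tested members (rows, grouped as transporters, enzymes, flux regulators, HIF factor with hydroxylases, and other HIF targets) in 4 comparisons (panels), from counts; bars are standard errors and filled points passed the test, blue lower and red higher. The filled points number 18, 15, 10 and 6 from left to right, and red ones (Pdk1, Egln3 and Bnip3) appear in the comparison of knockout with wild-type cells under IFN.

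Libraries held 31752685 to 45721356 counts. Replicate 2 of the untreated wild-type cells stood apart: 4.82% of its counts were mitochondrial, against 1.52% to 2.99% in the other 11 libraries, and it had the lowest TPM of its group for Eno1, Ldha, Pgk1 and Tpi1. Leaving it out left 24 members lower and 1 higher (Aldoc) with IFN in wild-type cells, against 5.27% of all genes lower, and 16 lower in untreated knockout cells, against 9.63%. Groups were read from the titles; the characteristics of 6 samples swap IFN-treated wild-type with untreated knockout cells. By the titles, Smarcd1 was lower in knockout cells by a log2 difference of -0.82 ± 0.13 (SE) without IFN (adjusted p = 0.000814, edgeR) and -0.79 ± 0.13 with IFN. By the characteristics, the untreated knockout libraries would be those titled wild type with IFN. There the Smarcd1 difference from untreated wild-type cells was 0.18, so its levels follow the titles. Colon epithelial markers were nearly absent: Epcam and Cdx2 were at 0 in every library and 2 of 9 markers passed 1 TPM anywhere, while 6 of 7 fibroblast markers did. The summed fibroblast markers were 309 to 311 TPM in untreated wild-type cells, 273 to 291 TPM with IFN, 241 to 247 TPM in untreated knockout cells and 158 to 162 TPM in knockout cells with IFN, and their part in the results was not tested. The fibroblast markers went opposite ways: with IFN in wild-type cells 4 of 6 tested fell, among them Col1a2 (-1.59) and Col3a1 (-1.32), and Dcn rose (0.89), while in untreated knockout cells 4 fell, among them Col1a1 (-2.47) and Dcn (-1.55). These calls were 83.3% and 66.7% of the 6, beside 9.38% and 17% of all genes. Immune markers summed to 8.48 to 17.6 TPM, nearly all of it Cd68, with Cd3e, Cd8a, Nkg7 and Adgre1 at 0.

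Promoters of members with small p-values are shown to mark ACGTG, a form of the site that HIF reads. A cap on the number taken from any single comparison left out Egln1, whose smallest p was below that of Ddit4. Each promoter shown is 300 bases, 250 before and 50 after the start site, on the gene's own strand, from RefSeq (GRCm38.p6). Capitals mark ACGTG on either strand. Other forms of the HIF site were not searched for or marked. The windows are Bnip3 chr7:138909457-138909756 (minus strand), P4ha2 chr11:54100674-54100973 (plus), Pfkp chr13:6648722-6649021 (minus), Egln3 chr12:54203825-54204124 (minus) and Ddit4 chr10:59951721-59952020 (minus).
Bnip3: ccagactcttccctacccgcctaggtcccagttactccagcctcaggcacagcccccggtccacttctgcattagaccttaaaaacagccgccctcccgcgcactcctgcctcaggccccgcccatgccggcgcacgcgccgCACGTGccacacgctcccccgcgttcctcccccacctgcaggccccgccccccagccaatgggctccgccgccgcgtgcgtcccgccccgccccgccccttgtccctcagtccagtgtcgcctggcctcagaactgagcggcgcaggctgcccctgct
P4ha2: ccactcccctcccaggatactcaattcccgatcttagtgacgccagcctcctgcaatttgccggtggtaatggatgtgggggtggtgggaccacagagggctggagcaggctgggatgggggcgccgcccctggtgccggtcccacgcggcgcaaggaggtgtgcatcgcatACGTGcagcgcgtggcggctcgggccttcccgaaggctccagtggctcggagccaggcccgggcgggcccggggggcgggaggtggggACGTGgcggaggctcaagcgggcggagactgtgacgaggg
Pfkp: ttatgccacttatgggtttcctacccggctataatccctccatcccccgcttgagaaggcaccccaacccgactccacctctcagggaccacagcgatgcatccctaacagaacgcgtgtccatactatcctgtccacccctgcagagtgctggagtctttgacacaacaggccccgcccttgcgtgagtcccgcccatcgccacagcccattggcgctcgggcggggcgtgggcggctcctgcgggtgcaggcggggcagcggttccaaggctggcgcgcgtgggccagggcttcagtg
Egln3: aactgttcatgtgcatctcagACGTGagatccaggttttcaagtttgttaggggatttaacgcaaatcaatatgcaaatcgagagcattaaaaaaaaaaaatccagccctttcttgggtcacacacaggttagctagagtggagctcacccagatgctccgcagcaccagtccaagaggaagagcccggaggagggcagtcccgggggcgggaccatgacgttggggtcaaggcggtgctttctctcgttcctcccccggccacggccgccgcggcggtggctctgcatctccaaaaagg
Ddit4: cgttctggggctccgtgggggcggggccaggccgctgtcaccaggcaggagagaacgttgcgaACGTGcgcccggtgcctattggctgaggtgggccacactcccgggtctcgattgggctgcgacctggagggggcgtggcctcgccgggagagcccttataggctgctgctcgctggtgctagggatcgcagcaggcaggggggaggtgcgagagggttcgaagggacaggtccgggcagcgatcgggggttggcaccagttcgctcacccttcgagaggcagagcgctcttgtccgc
In Bnip3 the overlapping forward and reverse matches form the palindrome CACGTG, starting 108 bases before the start site. P4ha2 has a match 78 bases before the start and another at base 11 after it, Egln3 has one at 229 bases before, Ddit4 one at 187 bases before, and Pfkp none in this window. Of the 35 members with a RefSeq promoter entry, 25 (71.4%) held ACGTG on either strand in at least 1 window, against 5886 of 27025 genes (21.8%) in the whole table. By gene, the share was 10 of 16 among the enzymes and 9 of 11 among the other HIF targets. By window it was 29 of 53 (54.7%) for the members and 6447 of 32851 (19.6%) for the table. Known HIF targets were chosen as members, so a high share can follow from that choice alone, and the excess was not tested. A match describes the letters and is no measure of binding; Ndrg1, Bnip3l and Slc2a3 have no entry.

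Hif1a RNA, which encodes the oxygen-regulated subunit, did not pass the test in any comparison. It measured 63.4, 112 and 66.4 TPM in untreated wild-type cells, 82.8, 86.5 and 70.1 TPM with IFN, 73.3, 75.5 and 81.2 TPM in untreated knockout cells and 93.3, 89.5 and 97.0 TPM in knockout cells with IFN. The highest of the 12 was the wild-type library that stood apart, and the treated and untreated wild-type ranges overlapped. The log2 difference was -0.13 ± 0.15 (SE) for IFN in wild-type cells and also for the knockout without IFN (adjusted p = 0.683 and 0.596), 0.14 ± 0.15 for IFN in knockout cells and 0.13 ± 0.15 for the knockout with IFN (0.613 and 0.642). These RNA values say nothing of the protein, at which the pathway is mainly controlled.

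Both hydroxylase genes fell with IFN in wild-type cells and fell in untreated knockout cells. Egln3 encodes PHD3, a hydroxylase that is itself strongly induced by HIF. It had 51.1, 59.8 and 50.3 TPM in untreated wild-type cells, 29.2, 25.7 and 25.4 TPM with IFN, 36.9, 34.8 and 31.4 TPM in untreated knockout cells and 41.2, 39.2 and 37.3 TPM in knockout cells with IFN. The order of the groups was therefore untreated wild type, knockout with IFN, untreated knockout and wild type with IFN, and the 2 knockout groups did not overlap. IFN lowered Egln3 1.96-fold in wild-type cells (log2 -0.97 ± 0.10, adjusted p = 7.44e-05), while in knockout cells the log2 difference was 0.23 ± 0.10 and did not pass (adjusted p = 0.164). Knockout cells had less Egln3 than wild-type cells without IFN (-0.66 ± 0.10, adjusted p = 0.000656) and more with IFN (0.54 ± 0.10, adjusted p = 0.00295).

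Egln1 encodes PHD2, the main oxygen sensor among the HIF hydroxylases. Its levels were 69.5, 62.03 and 70.1 TPM in untreated wild-type cells, 41.0, 43.0 and 37.4 TPM with IFN, 47.9, 55.8 and 53.0 TPM in untreated knockout cells and 45.8, 46.8 and 46.7 TPM in knockout cells with IFN. Untreated wild-type libraries lay above all others. IFN lowered it 1.62-fold in wild-type cells (-0.70 ± 0.08, adjusted p = 9.26e-05), the knockout lowered it 1.30-fold without IFN (-0.38 ± 0.08, adjusted p = 0.00384), and neither IFN in knockout cells (-0.13, adjusted p = 0.314) nor the knockout under IFN (0.19, adjusted p = 0.120) passed.

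Among the other HIF targets, Bnip3, which encodes a mitochondrial receptor for mitophagy, had the smallest p in wild-type cells. Its gene lies on the minus strand of chromosome 7 (138890836 to 138909519, GRCm38), and 22.3% of its exonic bases overlap a gene on the opposite strand, from which reads cannot be told apart without a stated strand setting. Overlap on either strand was also 26.4% for Ankrd37, 22.5% for Higd1a, 15.3% for Pkm and 11.5% for Gpi1. It was 10.7% for Pfkm, 9.29% for Car9, 8.43% for Ndrg1, 8.11% for Hif1a and less for the other members. For Pkm and Pfkm it lay mainly on the same strand. Bnip3 measured 165, 186 and 165 TPM in untreated wild-type cells and 54.9, 51.1 and 43.5 TPM with IFN. In knockout cells it measured 71.7, 91.0 and 80.4 TPM untreated and 69.1, 68.5 and 66.6 TPM with IFN. The groups followed the order of Egln3 except that the knockout groups changed places. The IFN difference was 3.35-fold lower in wild-type cells (-1.75 ± 0.10, adjusted p = 3.34e-07) and did not pass in knockout cells (-0.22 ± 0.10, adjusted p = 0.177). The knockout fell 2.16-fold below wild type without IFN (-1.11 ± 0.10, adjusted p = 5.52e-06) and was 1.34-fold above it with IFN (0.42 ± 0.10, adjusted p = 0.0109). Bnip3l, its paralog in mitophagy, fell with the knockout when no IFN was added (-0.55 ± 0.16, adjusted p = 0.0301), a call that ended on dropping library 1 or 3 of either untreated group (0.0781 to 0.114), and had -0.53 with IFN in wild-type cells (adjusted p = 0.0529).

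Both genes of the collagen prolyl 4-hydroxylase alpha subunits, enzymes of the endoplasmic reticulum that allow collagen to fold, fell with IFN in wild-type cells and in untreated knockout cells. P4ha2 measured 173, 169 and 146 TPM in untreated wild-type cells, 79.0, 84.2 and 64.5 TPM with IFN, 98.7, 121 and 89.1 TPM in untreated knockout cells and 64.4, 67.3 and 66.4 TPM in knockout cells with IFN. The untreated groups lay above the treated ones in both genotypes, with no overlap. IFN lowered P4ha2 1.93-fold in wild-type cells (-0.95 ± 0.07, adjusted p = 3.94e-06) and 1.40-fold in knockout cells (-0.49 ± 0.07, adjusted p = 0.000575), and the untreated knockout was 1.50-fold lower (-0.59 ± 0.07, adjusted p = 8.92e-05).

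P4ha1 had 124, 129 and 127 TPM in untreated wild-type cells, 88.4, 85.4 and 75.2 TPM with IFN, 109, 96.5 and 90.8 TPM in untreated knockout cells and 86.6, 88.8 and 80.8 TPM in knockout cells with IFN. All 3 untreated wild-type libraries were above the other 9. IFN lowered it in wild-type cells (-0.56 ± 0.07, adjusted p = 0.000449) and the knockout lowered it without IFN (-0.49 ± 0.07, adjusted p = 0.000578), while IFN in knockout cells gave -0.05.

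Ddit4 and Ndrg1 were the 2 members that fell in all 4 comparisons of groups. Ddit4 (chromosome 10, 59949669 to 59951834) encodes REDD1, a stress-induced inhibitor of mTORC1 signalling. It had 63.1, 45.8 and 66.2 TPM in untreated wild-type cells, 26.7, 26.8 and 20.9 TPM with IFN, 27.8, 26.4 and 20.6 TPM in untreated knockout cells and 9.14, 10.3 and 8.89 TPM in knockout cells with IFN. The ranges with IFN alone and with the knockout alone overlapped, and the cells with both lay below every other library. IFN lowered it 2.30-fold in wild-type cells (-1.20 ± 0.16, adjusted p = 0.000428) and 2.56-fold in knockout cells (-1.36 ± 0.16, adjusted p = 0.000109); the knockout lowered it 2.37-fold without IFN (-1.24 ± 0.16, adjusted p = 0.000133) and 2.63-fold with IFN (-1.40 ± 0.16, adjusted p = 6.9e-05).

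Ndrg1 (chromosome 15, 66929318 to 66969640) encodes a stress- and hypoxia-induced protein of the N-myc downstream regulated family. Its levels were 226, 247 and 220 TPM in untreated wild-type cells, 135, 138 and 150 TPM with IFN, 128, 112 and 107 TPM in untreated knockout cells and 65.9, 71.2 and 67.5 TPM in knockout cells with IFN. The 4 groups did not overlap. IFN lowered it 1.60-fold in wild-type cells (-0.68 ± 0.10, adjusted p = 0.00124) and 1.68-fold in knockout cells (-0.75 ± 0.10, adjusted p = 0.000341). The knockout lowered it 2.02-fold without IFN (-1.02 ± 0.10, adjusted p = 1.86e-05) and 2.13-fold with IFN (-1.09 ± 0.10, adjusted p = 1.23e-05).

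**Figure D2:**
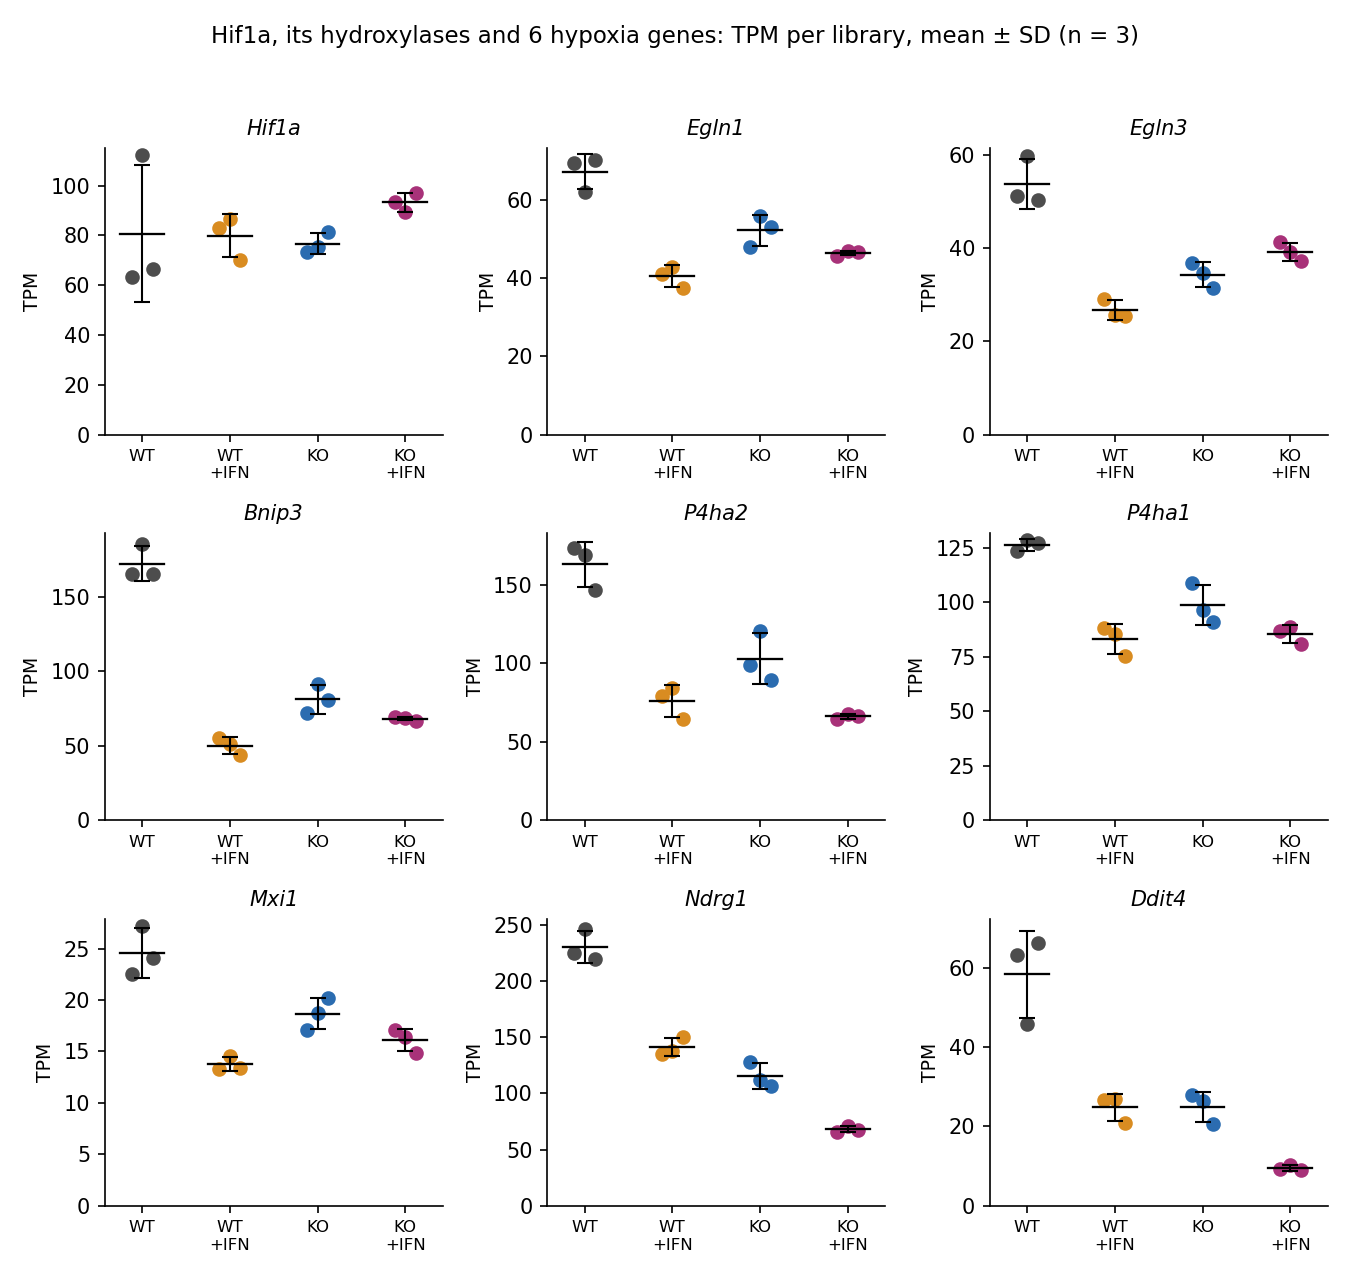
TPM in each library (points) of Hif1a, Egln1, Egln3 and 6 other HIF targets in the 4 groups, with the mean and SD (n = 3); each axis starts at 0. Ndrg1 and Ddit4 step down again in knockout cells with IFN, to 65.9 to 71.2 and 8.89 to 10.3 TPM, while Bnip3 lies at 66.6 to 69.1 TPM there, above the 43.5 to 54.9 TPM of wild-type cells with IFN.

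Mxi1 encodes a member of the MAD family that opposes Myc, and HIF induces it. It had 22.5, 27.2 and 24.0 TPM in untreated wild-type cells, 13.3, 14.5 and 13.4 TPM with IFN, 17.1, 18.7 and 20.2 TPM in untreated knockout cells and 17.1, 16.4 and 14.9 TPM in knockout cells with IFN. Wild-type cells with IFN were the lowest group. IFN lowered Mxi1 1.75-fold in wild-type cells (-0.81 ± 0.10, adjusted p = 0.000208), and the knockout lowered it 1.34-fold without IFN (-0.42 ± 0.10, adjusted p = 0.00920). The second call ended (adjusted p = 0.0609) when only the 2 groups compared were fitted.

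The remaining HIF targets were Adm, Ankrd37, Vegfa, Car9, Kdm3a and Higd1a. Adm, which encodes the vasodilator peptide adrenomedullin, had the largest differences of all members at a low level: 3.29 to 4.36 TPM in untreated wild-type cells against 0.446 to 1.59 TPM in the other 9 libraries. It fell with IFN in wild-type cells (-2.24 ± 0.32, adjusted p = 0.00076) and in untreated knockout cells (-1.94 ± 0.30, adjusted p = 0.000741). Ankrd37, an ankyrin repeat gene induced by HIF, fell in the same 2 comparisons (-1.16 ± 0.17 and -0.74 ± 0.16); 26.4% of its exonic bases overlap genes on the opposite strand. Vegfa, which encodes the angiogenic growth factor, fell with the knockout in the absence of IFN (-0.34 ± 0.08, adjusted p = 0.0136). That call ended without replicate 2 of the knockout libraries (0.0583) and when only the compared groups were fitted. Its difference with IFN in wild-type cells was -0.22 (adjusted p = 0.126). Car9 (carbonic anhydrase IX), Kdm3a (a histone demethylase) and Higd1a (a mitochondrial protein) passed in no comparison, with log2 differences from -0.64 to 0.20. Without replicate 2 of the untreated wild-type cells, Car9 and Higd1a fell in both comparisons that use that group.

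Among the transporters, Slc2a1 encodes GLUT1, the main glucose importer of most tumour cells. It had 162, 146 and 157 TPM in untreated wild-type cells, 100, 101 and 107 TPM with IFN, 128, 111 and 108 TPM in untreated knockout cells and 111, 115 and 111 TPM in knockout cells with IFN. Untreated wild-type libraries were above all others and the 2 knockout groups overlapped. IFN lowered Slc2a1 1.48-fold in wild-type cells (-0.56 ± 0.09, adjusted p = 0.00179), the knockout lowered it 1.36-fold without IFN (-0.44 ± 0.09, adjusted p = 0.00481), and IFN in knockout cells gave 0.00 ± 0.09 (adjusted p = 0.996). Slc16a3, which encodes the lactate exporter MCT4, fell with IFN in wild-type cells (-0.52 ± 0.13, adjusted p = 0.0217); the call ended without replicate 1 or 3 of the untreated or replicate 2 or 3 of the treated cells (0.0682 to 0.0842).

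The glycolytic enzymes are among the most abundant members: Eno1 (enolase) averaged 3079 ± 717 TPM (SD, n = 3), Pkm (pyruvate kinase) 2744 ± 201, Gapdh 2196 ± 134 and Ldha (lactate dehydrogenase) 1939 ± 359 TPM in untreated wild-type cells, and all 16 together made up 1.204% to 1.753% of the TPM of a library. IFN lowered 5 of the 16 in wild-type cells (median log2 difference -0.30) and 6 in knockout cells (-0.31). Of all genes, 4.72% and 7.28% were lower in these comparisons. Without replicate 2 of the untreated wild-type cells, 8 were lower and 1 higher in each genotype, the higher one being Aldoc in wild-type and Hk2 in knockout cells. The knockout lowered 2 without IFN (Pfkp and Pgam1, median 0.07), which is 12.5% beside 10.6% of all genes lower. Without that library the knockout lowered Pfkp alone, and the median was -0.07. With IFN the knockout changed 0 at an adjusted p under 0.05 by edgeR (1 higher and 1 lower at an unadjusted p under 0.05). DESeq2 called 1 there, Gpi1. The 2 members nearest to passing edgeR's test there were Gpi1 (0.27, adjusted p = 0.0509) and Pkm (-0.26, adjusted p = 0.0848). Aldoa supplied 99.84% to 99.996% of the summed TPM of Aldoa and Aldoc.

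Phosphofructokinase, the committed step of glycolysis, has 3 subunit genes. Pfkl made up 53.2%, Pfkp 29.3% and Pfkm 17.5% of their summed TPM in untreated wild-type cells, as means of 3 libraries. Pfkp (chromosome 13, 6579768 to 6648777) had 82.9, 94.3 and 82.5 TPM in untreated wild-type cells, 58.2, 54.3 and 54.3 TPM with IFN, 69.3, 68.0 and 72.7 TPM in untreated knockout cells and 54.5, 49.9 and 49.2 TPM in knockout cells with IFN. In CPM, the library-scaled counts with no correction for length, the knockout groups lay closer together, at 90.5, 98.8 and 103 CPM untreated and 90.1, 85.0 and 90.3 CPM with IFN, against 144, 151 and 141 CPM in untreated wild-type cells. The deposited TPM and counts thus differ for this gene in the IFN response of knockout cells. On counts, IFN lowered Pfkp in wild-type cells (-0.70 ± 0.07, adjusted p = 6.29e-05), the knockout lowered it without IFN (-0.58 ± 0.07, adjusted p = 0.000118) and IFN in knockout cells gave -0.14 (adjusted p = 0.248).

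Pfkm had 60.0, 41.5 and 57.6 TPM in untreated wild-type cells, 43.9, 39.8 and 36.7 TPM with IFN, 69.2, 64.3 and 60.6 TPM in untreated knockout cells and 39.4, 40.0 and 40.7 TPM in knockout cells with IFN. Its untreated and treated knockout libraries were far apart, while replicate 2 of the untreated wild-type cells lay among the treated ones. It fell with IFN in knockout cells (-0.65 ± 0.12, adjusted p = 0.00371) and had -0.37 in wild-type cells (adjusted p = 0.0857). Pfkl fell with IFN in both genotypes, by -0.77 ± 0.15 in wild-type cells (adjusted p = 0.00744) and -0.61 ± 0.15 in knockout cells (adjusted p = 0.0192), the latter ending (0.0574 to 0.0808) without replicate 1 of the untreated or any of the treated knockout libraries.

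Below phosphofructokinase, the calls for IFN were spread over aldolase, triosephosphate isomerase, phosphoglycerate kinase, phosphoglycerate mutase and lactate dehydrogenase. Aldoa, the aldolase that splits fructose bisphosphate, had 1381, 1138 and 1467 TPM in untreated wild-type cells, 978, 1023 and 1083 TPM with IFN, 1668, 1439 and 1484 TPM in untreated knockout cells and 1034, 1044 and 1042 TPM in knockout cells with IFN. The treated groups lay below the untreated ones in both genotypes. It fell with IFN in knockout cells (-0.53 ± 0.10, adjusted p = 0.00488), and the difference in wild-type cells was -0.34 (adjusted p = 0.0627). Without replicate 2 of the untreated wild-type cells, Aldoa, Pfkm, Ldha and Eno1 were all called lower with IFN in wild-type cells.

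Tpi1, triosephosphate isomerase, had 845, 607 and 764 TPM in untreated wild-type cells, 522, 510 and 450 TPM with IFN, 908, 756 and 715 TPM in untreated knockout cells and 524, 526 and 516 TPM in knockout cells with IFN. The groups with IFN overlapped each other and lay below all untreated libraries. It fell with IFN in wild-type cells (-0.54 ± 0.13, adjusted p = 0.0183) and in knockout cells (-0.57 ± 0.13, adjusted p = 0.00928). The wild-type call ended (0.0585 to 0.0716) without replicate 1 or 3 of the untreated or replicate 2 or 3 of the treated wild-type cells.

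Pgk1, phosphoglycerate kinase, fell by -0.47 ± 0.13 in wild-type cells (adjusted p = 0.0382) and -0.56 ± 0.13 in knockout cells (adjusted p = 0.0134). Ldha, the enzyme that makes lactate, fell in knockout cells (-0.45 ± 0.14, adjusted p = 0.0470) and had -0.41 in wild-type cells (adjusted p = 0.0826). Each of these calls was lost without some libraries: Pgk1 in wild-type cells without any of 8 (0.0554 to 0.134), Pgk1 in knockout cells without replicate 1 of the untreated or replicate 3 of the treated cells (0.0548 to 0.0568), and Ldha without any of 8 (0.0552 to 0.164). For Pgk1 the 8 were untreated wild-type libraries 1 and 3, treated wild-type libraries 2 and 3, untreated knockout library 2 and all treated knockout libraries. For Ldha they were untreated wild-type library 3, treated wild-type libraries 1 and 2, untreated knockout libraries 1 and 2 and all treated knockout libraries.

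Pgam1, phosphoglycerate mutase, had 691, 812 and 702 TPM in untreated wild-type cells, 531, 547 and 624 TPM with IFN, 567, 590 and 598 TPM in untreated knockout cells and 532, 543 and 531 TPM in knockout cells with IFN. Untreated wild-type libraries were the highest. It fell with IFN in wild-type cells (-0.34 ± 0.09, adjusted p = 0.0411) and in untreated knockout cells (-0.35 ± 0.09, adjusted p = 0.0227), but 2 named pseudogenes held 22174 counts beside 243864 in Pgam1, and adding them ended the first call. That call also ended when any 1 library was dropped (0.0525 to 0.154), except treated wild-type library 3 and untreated knockout library 1. The second ended without untreated wild-type library 2 or without any 1 of the untreated knockout libraries (0.0548 to 0.0666).

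The enzymes that passed in no comparison were Hk1 and Hk2 (hexokinases, the entry step), Gpi1 (glucose phosphate isomerase), Aldoc, Gapdh, Eno1, Eno2 and Pkm. Gapdh, which is often used as a reference gene, had 0.19 ± 0.10 with IFN in wild-type cells (adjusted p = 0.256), and its libraries ranged from 2041 to 2743 TPM. Hk2 had -0.01 with IFN in wild-type and 0.30 in knockout cells (adjusted p = 0.978 and 0.0682). Aldoc, at 0.0408 to 1.74 TPM, had the largest positive difference with IFN in wild-type cells (1.41 ± 0.48, adjusted p = 0.0920).

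**Figure D3:**
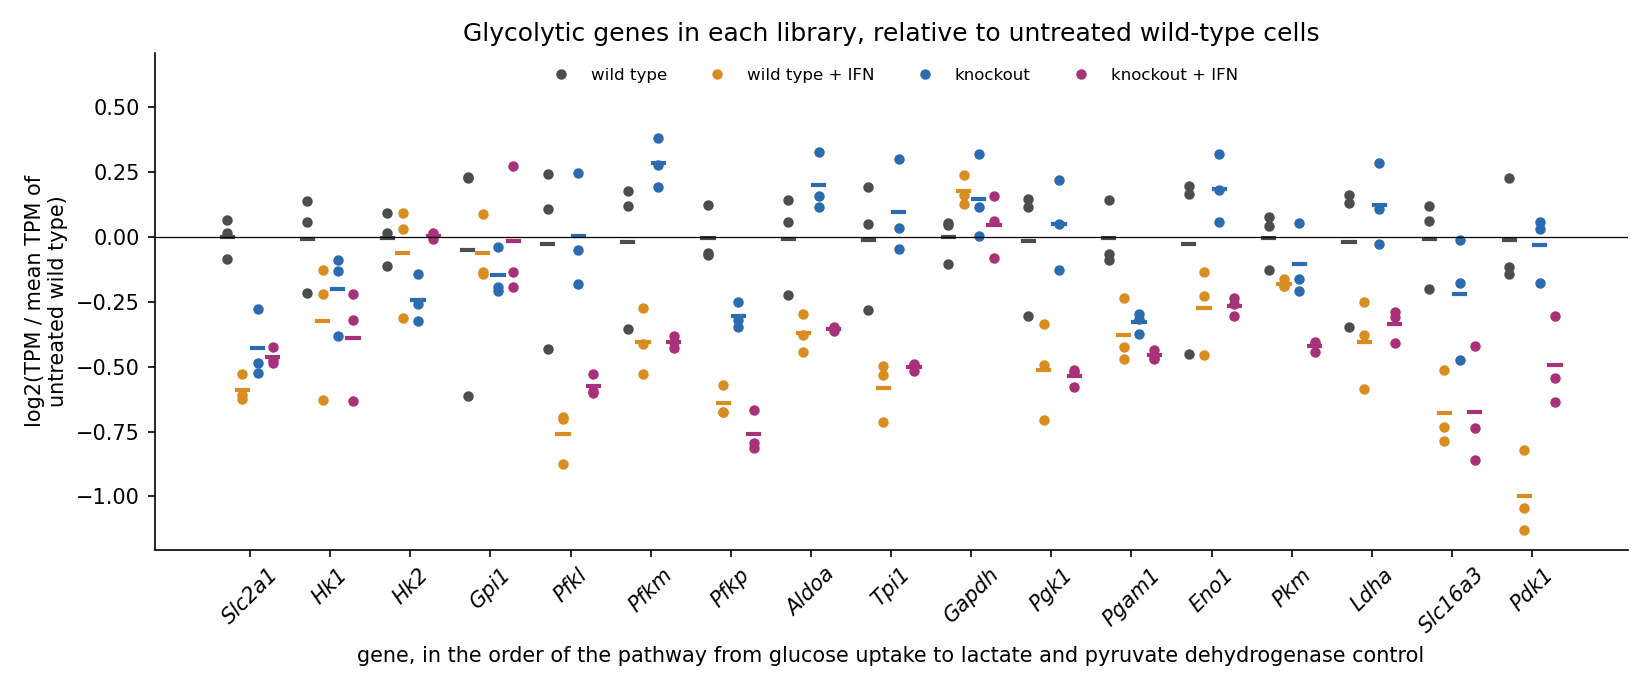
TPM of glycolytic genes in each library (points) as log2 of the ratio to the mean of untreated wild-type cells, in pathway order, with horizontal bars at the mean log2 ratio of each group. Points of both IFN groups lie below those of both untreated groups at Tpi1, where they are 450 to 526 against 607 to 908 TPM, and around the untreated level at Hk2 and Gapdh.

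Of the flux regulators, Pdk1 encodes the pyruvate dehydrogenase kinase through which HIF holds pyruvate back from the mitochondria. It had 49.7, 63.04 and 48.7 TPM in untreated wild-type cells, 26.1, 30.5 and 24.6 TPM with IFN, 56.0, 54.9 and 47.5 TPM in untreated knockout cells and 36.9, 34.6 and 43.6 TPM in knockout cells with IFN. Untreated cells of both genotypes overlapped, and with IFN the knockout libraries lay above the wild-type ones. Deposited TPM and counts differ in size for Pdk1 too. Its mean went from 53.8 to 27.0 TPM with IFN in wild-type cells, a larger step than on counts. IFN lowered Pdk1 1.65-fold in wild-type cells (-0.72 ± 0.09, adjusted p = 0.000236) and 1.27-fold in knockout cells (-0.34 ± 0.09, adjusted p = 0.0203), and under IFN the knockout was 1.37-fold higher (0.46 ± 0.09, adjusted p = 0.00302). The call in knockout cells ended without replicate 1 or 2 of the untreated or 2 or 3 of the treated knockout cells (0.0558 to 0.0916).

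Pfkfb4, one of the bifunctional enzymes that set fructose 2,6-bisphosphate, had 5.89, 3.88 and 4.49 TPM in untreated wild-type cells, 5.78, 5.75 and 4.28 TPM with IFN, 4.70, 3.32 and 3.89 TPM in untreated knockout cells and 3.51, 4.39 and 4.06 TPM in knockout cells with IFN. The groups overlapped in TPM. In CPM, wild-type cells with IFN had 8.52, 8.996 and 6.16 and knockout cells with IFN 3.48, 4.98 and 4.02, with no overlap. On counts the knockout was lower under IFN (-0.92 ± 0.20, adjusted p = 0.00767), but on the log2(TPM + 1) scale the difference was -0.32 and did not pass with limma (adjusted p = 0.233). Pfkfb3, its paralog, passed in no comparison.

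The IFN responses of both genotypes were compared directly by the interaction term. It was positive and passed for 6 of 37 members, against 0.708% of all genes in that direction (1.02% in either), and for 0 in the negative direction (0 also at an unadjusted p under 0.05 and by DESeq2, with 17 positive at an unadjusted p); the median was 0.26 over the members. The 6 were Bnip3 (1.53 ± 0.14, adjusted p = 5.32e-05), Egln3 (1.20 ± 0.14, adjusted p = 0.000625), Pfkp (0.57 ± 0.10, adjusted p = 0.0158), Egln1 (0.57 ± 0.11, adjusted p = 0.0198), P4ha1 (0.51 ± 0.10, adjusted p = 0.0354) and Mxi1 (0.64 ± 0.14, adjusted p = 0.0484). For each of them IFN lowered the gene in wild-type cells and did not pass in knockout cells. Each of the 6 was also lower in untreated knockout cells. The untreated wild-type libraries enter the interaction too. High values in them lower both of those differences and raise the interaction by construction. The 6 are therefore not observations separate from the calls for IFN in wild-type cells and for the untreated knockout. Ddit4 (-0.15, adjusted p = 0.808) and Ndrg1 (-0.07, adjusted p = 0.865), which fell with IFN in both genotypes, had interaction values near 0 beside these. P4ha2 (0.47, adjusted p = 0.05004), Slc2a1 (0.56, adjusted p = 0.0621) and Adm (1.82, adjusted p = 0.106) did not pass.

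The calls for Bnip3 and Egln3 held in every alternative run, with adjusted p-values up to 0.00041 and 0.00381. The other 4 each ended under limma on TPM. There the Pfkp interaction was as low as 0.18 (adjusted p up to 0.587), and its call ended without treated wild-type library 2 or treated knockout library 1 or 3 (0.0640 to 0.0712). Leaving out 1 of 7 libraries ended the call for Egln1 (0.0540 to 0.0829): untreated wild-type 1 or 3, treated wild-type 1, untreated knockout 3 or any treated knockout library. For P4ha1 (0.0515 to 0.143) any of 10 did, all but untreated wild-type 2 and treated wild-type 1. For Mxi1 (0.0586 to 0.160) it was any of 10, all but untreated wild-type 1 and 2.

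**Figure D4:**
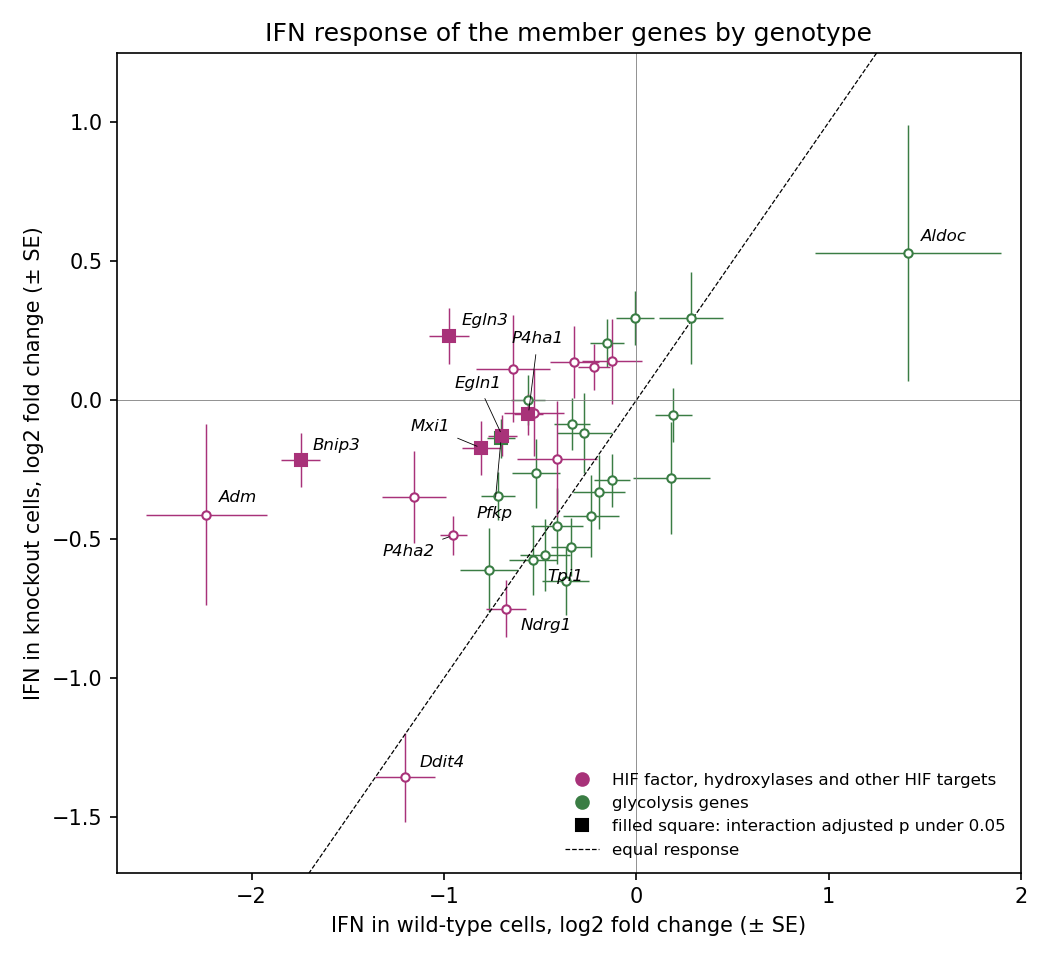
Log2 fold change with IFN in wild-type cells (horizontal) and in knockout cells (vertical) for the 37 tested members, with standard errors; filled squares passed the interaction test, purple marks the hypoxia genes and green the glycolysis genes, and the dashed line is an equal response. Bnip3 and Egln3 lie farthest above the line among the squares, with interactions of 1.53 and 1.20, and Ddit4 and Ndrg1 lie close to it.

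The members called in comparisons that share no library were counted together. Of the 18 that fell with IFN in wild-type cells and the 10 that fell in knockout cells, 7 were in both: Pdk1, Pgk1, Ddit4, Pfkl, Ndrg1, P4ha2 and Tpi1. As 48.6% of the tested members fell with IFN in wild-type cells, some of the 10 would be shared without any link. Of the 15 that fell in untreated knockout cells, 2 (Ddit4 and Ndrg1) were also lower in knockout cells under IFN, and 2 (Egln3 and Bnip3) were higher there. Over all genes, 10.6% were lower and 5.11% higher in that comparison. These overlaps were not tested.

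Other genes of these pathways were taken from lists written from general knowledge. Of 14 tested genes of the HIF pathway itself, 0 passed edgeR's test with IFN in wild-type cells (1 at an unadjusted p under 0.05), and in untreated knockout cells 1 did, Vhl, which encodes the von Hippel-Lindau protein (-0.40 ± 0.12, adjusted p = 0.0349). In knockout cells IFN raised Cul2, the cullin of that ubiquitin ligase (0.31), and under IFN the knockout lowered Siah2, a ubiquitin ligase that acts on the hydroxylases (-0.37). Each of these single calls was 7.14% of the list, beside 17%, 12.8% and 15.7% of all genes called. Of 38 other hypoxia-linked genes, 15 fell and 4 rose with IFN in wild-type cells, 6 fell and 4 rose with IFN in knockout cells, 16 fell and 1 rose in untreated knockout cells, and 8 fell and 2 rose in knockout cells under IFN. In either direction these were 50%, 26.3%, 44.7% and 26.3% of the list, beside 9.38%, 12.8%, 17% and 15.7% of all genes. Those that fell with IFN in wild-type cells included Loxl2 (-1.37) and Plod2 (-0.94), which encode enzymes of collagen cross-linking, and Pgm2 (-0.51), while Tfrc, the transferrin receptor gene, rose (1.36). In untreated knockout cells Loxl2 (-1.46), Ero1l (-1.56), an oxidase of the endoplasmic reticulum, Plod2 (-1.21) and Vldlr (-0.85) were lower.

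Genes of neighbouring routes were also listed. Of 14 other isoforms and regulators of glycolysis, IFN in wild-type cells raised Slc2a6 (1.06) and lowered Eno3 (-0.76) and Pdk3 (-0.32), and in knockout cells it lowered Eno3 (-0.79) and raised Tigar (0.30). Untreated knockout cells had more Slc2a6 (0.97) and Pfkfb2 (0.47) and less Adpgk (-0.50) and Hkdc1 (-1.66), both of which were also lower in the knockout under IFN (-0.44 and -2.78). Hkdc1 was near the floor, with 13 to 17 counts in wild-type libraries and 0 to 8 in knockout libraries. The calls of this list were 21.4% and 14.3% with IFN in wild-type and knockout cells, and 28.6% and 14.3% for the knockout without and with IFN. Of 10 genes of pyruvate entry into mitochondria, 0 passed edgeR's test with IFN in either genotype (at an unadjusted p under 0.05, 1 was higher and 2 lower in each); in untreated knockout cells Mpc2 (0.42) and Pdp1 (0.39) were higher and Dlat (-0.31) lower, and in the knockout under IFN Pdp1 (0.52) was higher and Pdhb (-0.36) lower. Of 7 genes of the pentose phosphate pathway, Tkt (0.40) and Pgd (0.44) were higher in untreated knockout cells, and IFN lowered G6pdx (-0.44) and Taldo1 (-0.45) in knockout cells. Of 17 genes of the tricarboxylic acid cycle, Sdhc (0.45), Idh2 (0.64) and Fh1 (0.46) were higher in untreated knockout cells, 17.6% of the list beside 17% of all genes called. In that list IFN raised Dlst (0.26) in wild-type cells and lowered Idh2 (-0.53) and Sdhc (-0.34) in knockout cells, 5.88% and 11.8% of the list. The pyruvate calls were 30% of their list in untreated knockout cells and 20% in the knockout under IFN. The pentose phosphate calls were 28.6% in untreated knockout cells and 28.6% with IFN in knockout cells. Of all genes, 9.38% were called with IFN in wild-type cells and 12.8% with IFN in knockout cells. For the knockout the shares were 17% without IFN and 15.7% under IFN.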

How the data were processed

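Poly-A RNA of 12 MC38 samples was sequenced. CASAVA, Trimmomatic 0.36, FastQC 0.11.2, HISAT2 2.1.0 and GRCm38 are named per the submitters' processing notes; the sources used here do not give the counting and TPM programs, strand setting or annotation. The authors deposited raw counts per gene and TPM for 51826 genes. Identifiers were matched to GENCODE M21 (99.6%). Counts were analysed with edgeR 4.0.16 in R 4.3.3: filterByExpr (minimum count 10, total 15) kept 16676 genes, libraries were scaled by TMM, and all 12 libraries entered a robust quasi-likelihood model of 4 group means (residual degrees of freedom 8, biological coefficient of variation 0.168). Each of 5 contrasts was adjusted by Benjamini-Hochberg over all genes. Standard errors are the log2 difference over the square root of F, and are approximate. Alternatives used DESeq2 1.42.0, limma 3.58.1 on log2(TPM + 1) or log2(TPM + 0.1), and left out each library. The model was tested on simulated counts. No library copied another: chi-square per gene was at least 10.7 within groups.

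The members and lists were chosen with earlier results of these data known. Values in every library are given for Hif1a, Egln1, Egln3 and, in each contrast, the up to 3 called members with the smallest p among the glycolysis genes and among the other HIF targets; up to 4 called genes of each other list were named.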

Additional observations from a re-analysis of the deposited data

Results flagged for a closer look

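The response to IFN differed between the genotypes for 6 members by the interaction test, as the log2 response of knockout cells minus that of wild-type cells. The values were 1.53 for Bnip3, 1.20 for Egln3, 0.57 for Pfkp, 0.57 for Egln1, 0.51 for P4ha1 and 0.64 for Mxi1. On TPM, the interaction of Pfkp was as low as 0.18. The calls of Bnip3 and Egln3 ended in 0 of 20 alternative runs. Those of Pfkp, Egln1, P4ha1 and Mxi1 ended in 5, 10, 14 and 16 of the 20. The untreated wild-type libraries enter these values as well as the calls for IFN in wild-type cells and for the untreated knockout.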

How the results depend on the processing

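Of the members, 14 to 25 were called for IFN in wild-type cells when 1 library was left out (18 with all), 6 to 13 for IFN in knockout cells (10), 13 to 16 for the untreated knockout (15), 6 to 8 for the knockout under IFN (6) and 2 to 8 for the interaction (6). With the replicate block the counts were 17, 10, 15, 6 and 3, so the interaction moved. The labels do not say whether the replicate numbers pair the samples. Correlations were -0.162 to 0.114 over 18 same-numbered pairs and -0.170 to 0.194 over 36 differently numbered pairs. With 3 libraries per group these values cannot exclude pairing. The interaction count was 2 with limma on TPM at either pseudocount. Leaving out 2 libraries far from their groups, chosen after seeing the data, gave 16 for IFN in knockout cells, 10 for the knockout under IFN and 10 for the interaction. Fitting only the groups compared ended the calls of Slc16a3, Tpi1, Pgk1 and Pgam1 for IFN in wild-type cells and of Pgam1, Vegfa, Bnip3l and Mxi1 for the untreated knockout; limma on TPM ended those of Pgk1 for IFN in wild-type cells, Ldha for IFN in knockout cells, Pfkfb4 and 4 of the interactions. Over all genes, fitting only the groups compared called 648 for IFN in wild-type cells (1564 otherwise) and 1494 for the untreated knockout (2835). DESeq2 called 357 interactions and limma on log2(TPM + 1) 111 (170). Without the 2 far libraries the counts were 2717 for IFN in wild-type cells, 4457 for the knockout under IFN (2622) and 265 interactions. Leaving out 1 library gave as few as 883 genes for IFN in wild-type cells (treated wild-type library 2; 1032 without untreated library 3), 1349 to 1361 for IFN in knockout cells (2127) without any 1 treated knockout library, and 1726 for the knockout under IFN. Called members changed direction only with the groups taken from the characteristics, which exchange 2 groups by construction. The log2 differences there were 0.098 (Tpi1), 0.041 (Pgk1) and 0.085 (Pdk1) for IFN in wild-type cells, and 0.112 (Pfkl), 0.062 (Tpi1), 0.069 (Ldha), 0.46 (Pdk1) and 0.42 (Bnip3) for IFN in knockout cells. They were -0.54 (Tpi1), -0.47 (Pgk1) and -0.72 (Pdk1) for the untreated knockout, and -0.61 (Pfkl), -0.57 (Tpi1), -0.45 (Ldha), -0.34 (Pdk1) and -0.22 (Bnip3) for the knockout under IFN. With that grouping 6 members were called for IFN in knockout cells and 10 for the knockout under IFN. No scaling moved the median of all genes by 0.1. Depth limits Slc2a3, Aldoc and Adm most, since their levels are lowest.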
